A study of Homo sapiens with 12 samples.

Results

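The RNA found crosslinked to eIF3d, a subunit of the human translation initiation factor eIF3, is described here gene by gene and set beside the RNA found with 3 other subunits, eIF3a, eIF3b and eIF3g. The members are the clusters that the authors' table lists under eIF3d, taken by that label alone: 403 of 1477 clusters, in 356 of the 479 genes of the table. A cluster is a short stretch of RNA covered by overlapping reads. The comparison lists hold 375 clusters for eIF3a, 298 for eIF3b and 401 for eIF3g.

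The factor eIF3 is a complex of many subunits that brings the small ribosomal subunit, the initiator tRNA and the mRNA together at the start of translation. It lies close to the 5′ end of the mRNA, and several of its subunits touch RNA directly. The subunit eIF3d sits at the edge of the complex and is known to bind the 5′ cap of some mRNAs, among them JUN, which gives these mRNAs a route to initiation beside the usual cap-binding protein eIF4E. Subunits eIF3a and eIF3b are part of the scaffold of the complex, and eIF3g is an RNA-binding subunit held near eIF3b.

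All 4 groups came from 293T cells, a line derived from human embryonic kidney, grown with 100 µM 4-thiouridine for 14 h and irradiated at 0.15 J per square cm. In this assay (PAR-CLIP) the uridine analog crosslinks to a protein that touches it and is then copied as C where T was expected. One antibody, against eIF3b, pulled down the whole complex in every group, RNase T1 trimmed the RNA, and a denaturing gel separated the bands from which the libraries of each subunit were made. Each subunit had 3 libraries, of which replicate 1 carried a random barcode, and no control library is among the 12. The table gives 1 value per cluster and subunit with the replicates put together, and nothing says that the replicates came from separate cultures. No value below therefore has an error between libraries and no test between subunits was made. Wilson intervals at 95% are given for shares and cover counting error only. None of 20 marker genes of other cell types and none of 10 genes associated with the 293T line is in the table, so the cell line was not checked from these clusters.

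The eIF3d clusters held 24150 reads. A cluster had from 8 to 3315 reads with a median of 23, and its width had a median of 24 nt. Reads were concentrated in a few clusters. The 3 strongest held 33.8% of all eIF3d reads and the 10 strongest 45.1%, while 124 clusters (30.8%) had 15 reads or fewer. Only reads inside clusters are tabulated, so the depth of each library is unknown. How abundant an RNA was, how well it crosslinked and how much of each band was recovered cannot be told apart in a read count, and counts are therefore compared as ranks within a list or relative to the median ratio of a pair of lists.

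Most eIF3d clusters lay in 5′ untranslated regions. This class held 277 clusters, 68.7% of the list (64.0% to 73.1%), beside 67.7% for eIF3a, 65.8% for eIF3b and 68.3% for eIF3g, and these intervals overlapped. Coding exons held 38 clusters (9.43%), noncoding RNAs 33 (8.19%), introns 32 (7.94%), start codons 17 (4.22%) and 3′ UTRs 6 (1.49%). By reads the picture differed. The 5′ UTR clusters held 49.8% of eIF3d reads and the coding exons 29.1%, because EIF3A alone supplied most coding reads. Without EIF3A the 5′ UTR share by reads was 66.7%. The noncoding clusters of eIF3d had the highest median of its classes, 43 reads, followed by start codons with 31, 5′ UTRs with 22, introns with 21, coding exons with 18.5 and 3′ UTRs with 14. In eIF3g the noncoding class held 62.8% of reads, against 11.5% in eIF3d.

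Among the 33 noncoding clusters, those annotated as microRNA were a pair of genes listed for eIF3d and eIF3a and for neither of the others. Clusters annotated as intron or lincRNA were not checked for microRNAs within them. MicroRNAs are short RNAs cut from a hairpin that guide Argonaute proteins to mRNAs through their seed, bases 2 to 8. The cluster in hsa-mir-203a (chr14:104583807-104583827, plus strand, hg19) had 19 reads in eIF3d and 10 in eIF3a. The cluster in hsa-mir-122, a microRNA known for its abundance in liver, had 15 reads in eIF3d and 13 in eIF3a (chr18:56118320-56118341, plus strand). Both lay below the eIF3d median of 23 reads. The table does not say which arm of the hairpin was covered, so both arms of each are shown, from RefSeq on GRCh38.p14, with the seed in capitals; the 4 seeds differ from each other.
hsa-miR-203a-5p: aGUGGUUCuuaacaguucaacaguu
hsa-miR-203a-3p: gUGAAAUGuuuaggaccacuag
hsa-miR-122-5p: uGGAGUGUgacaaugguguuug
hsa-miR-122-3p: aACGCCAUuaucacacuaaaua

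The mRNA of EIF3A, which encodes the scaffold subunit of eIF3 itself, carried the strongest eIF3d clusters. Its 4 eIF3d clusters, all in coding exons, held 6132 reads, 25.4% of the eIF3d total. The EIF3A clusters of eIF3b held 5464 reads (28.5% of its total), those of eIF3a 382 and those of eIF3g 48. In eIF3a its clusters ranked 7, 28 and 49, and in eIF3g its 1 cluster ranked 78. The strongest cluster of the whole eIF3d list (chr10:120833325-120833345, minus strand) had 3315 reads in eIF3d and 1963 in eIF3b, and no cluster at this locus was listed for eIF3a or eIF3g. The next (chr10:120829052-120829076, minus strand) had 2599 reads in eIF3d and 1411 in eIF3b. A cluster of eIF3a with 224 reads fell to the same locus through the longer eIF3b cluster, without overlapping the eIF3d cluster itself. The remaining eIF3d clusters had 142 reads (chr10:120833048-120833085) and 76 reads (chr10:120820759-120820790), and the weaker of these was the EIF3A site listed for every subunit, with 61 reads in eIF3a, 21 in eIF3b and 48 in eIF3g. One EIF3A site with 1875 reads in eIF3b (chr10:120832520-120832557) had no eIF3d cluster. Conversions were few at the strongest EIF3A sites, with 32 at 3315 reads and 39 at 2599 reads in eIF3d. In eIF3b there were 289 at 1963 reads and 174 at 1411, where the median over all clusters was 1.05 per read. How far these reads mark a crosslink was not tested.

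**Figure D1:**
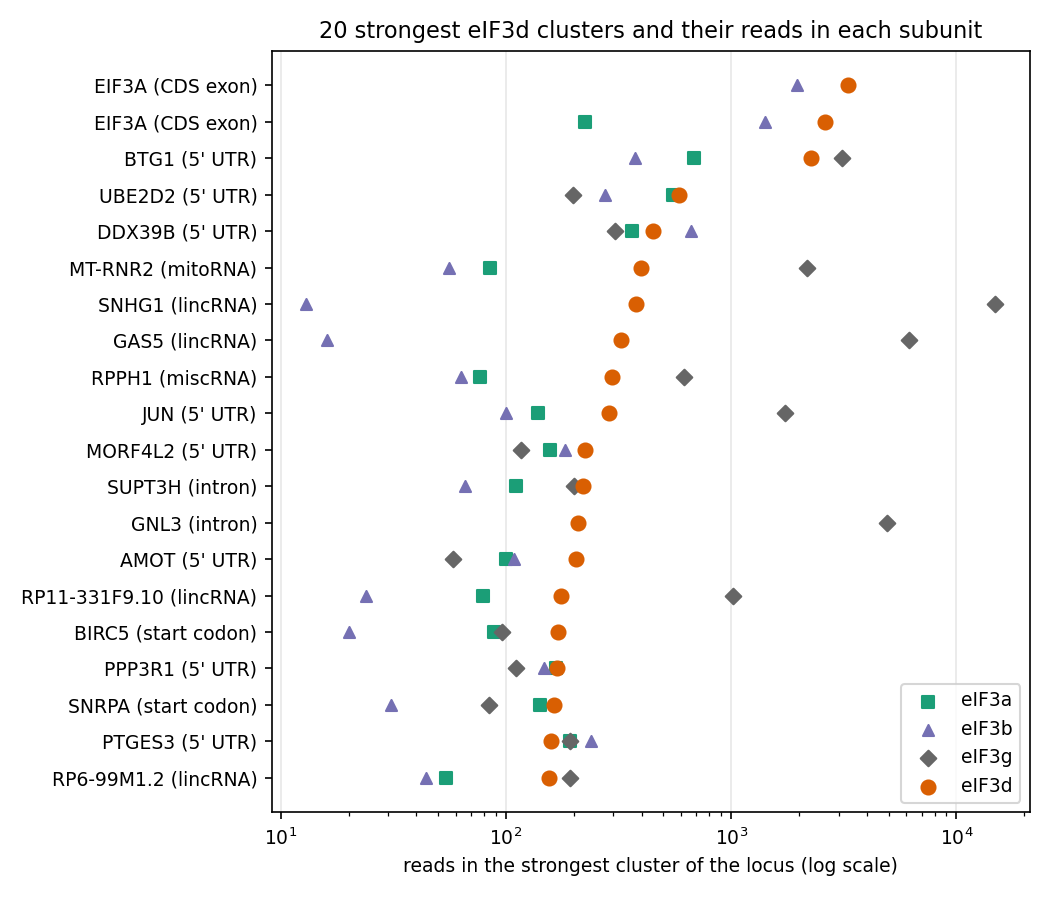
Reads (log axis) in the strongest cluster of each locus for the 20 strongest eIF3d clusters, with 1 symbol per subunit and no symbol where a subunit had no cluster there. The EIF3A clusters at the top stand high in eIF3d and eIF3b, while SNHG1, GAS5 and GNL3 stand far higher in eIF3g than in eIF3d.

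BTG1, JUN and BIRC5, mRNAs of growth control and apoptosis, ranked 3, 10 and 16 in eIF3d. BTG1, which encodes an anti-proliferative protein, had the third eIF3d cluster by reads (chr12:92539489-92539570, minus strand, 5′ UTR), with 2256 reads in eIF3d, 684 in eIF3a, 372 in eIF3b and 3109 in eIF3g. It ranked 3 in eIF3d, 1 in eIF3a, 9 in eIF3b and 5 in eIF3g. It was thus near the top of every list. JUN, a subunit of the transcription factor AP-1, had its 5′ UTR cluster at chr1:59249572-59249600 (minus strand), with 286 reads in eIF3d, 138 in eIF3a, 100 in eIF3b and 1735 in eIF3g. Its ranks were 10 in eIF3d, 16 in eIF3a, 36 in eIF3b and 7 in eIF3g. JUN was high in eIF3d and a little higher by rank in eIF3g, and its percentile was not among those that moved by 25 points or more. BIRC5, the apoptosis inhibitor survivin, had 171 reads at its start codon in eIF3d, 88 in eIF3a, 20 in eIF3b and 96 in eIF3g.

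The other leading eIF3d clusters in mRNAs lay in 5′ UTRs shared by all subunits. UBE2D2, a ubiquitin-conjugating enzyme (chr5:138941234-138941280, plus strand), had 589 reads in eIF3d, 554 in eIF3a, 276 in eIF3b and 199 in eIF3g. DDX39B, a helicase that acts in splicing and mRNA export (chr6:31508375-31508402, minus strand), had 451 reads in eIF3d, 361 in eIF3a, 665 in eIF3b and 306 in eIF3g. These clusters ranked 4 and 5 in eIF3d and were in the upper part of each other list too. MORF4L2, a chromatin protein of histone acetyltransferase complexes, followed with 225 reads in eIF3d, 157 in eIF3a, 183 in eIF3b and 117 in eIF3g.

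Noncoding RNAs made up 4 of the 10 strongest eIF3d clusters. The large mitochondrial ribosomal RNA MT-RNR2 (chrM:3159-3230, plus strand) had 397 reads in eIF3d, 85 in eIF3a, 56 in eIF3b and 2159 in eIF3g. SNHG1, a host gene of small nucleolar RNAs (chr11:62621139-62621163, minus strand), had 377 reads in eIF3d, 13 in eIF3b and 14879 in eIF3g and no cluster in eIF3a. GAS5, another such host (chr1:173835129-173835166, minus strand), had 324 reads in eIF3d, 16 in eIF3b and 6165 in eIF3g, also with none in eIF3a. At both, eIF3d stood between eIF3g and the scaffold subunits. The order did not hold at every host gene: SNHG15 had 37 reads in eIF3d, 48 in eIF3a, 105 in eIF3b and 41 in eIF3g. RCC1 and EEF2, also host genes, had more reads in eIF3d than in eIF3g (21 against 19 and 23 against 8). The host genes GNL3 and RPL17, given below, had far more reads in eIF3g and were not listed for eIF3a or eIF3b. RPPH1, the RNA of ribonuclease P (chr14:20811229-20811302, minus strand), had 296 reads in eIF3d, 77 in eIF3a, 63 in eIF3b and 619 in eIF3g. An intron of GNL3, a nucleolar GTPase, had 209 reads in eIF3d and 4929 in eIF3g and was listed for neither eIF3a nor eIF3b. Introns of RBMX, a splicing regulator, and RPL17, a ribosomal protein, were listed for the same pair of subunits as GNL3, with 57 and 42 reads in eIF3d and 1179 and 794 in eIF3g. Clusters on the mitochondrial chromosome held 3.29% of eIF3d reads.

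The 17 start codon clusters of eIF3d included mRNAs of histones, which package DNA. HIST1H2AD had 109 reads in eIF3d, 83 in eIF3a, 9 in eIF3b and 93 in eIF3g. HIST1H2BO had 63 reads in eIF3d, 60 in eIF3a, 13 in eIF3b and 36 in eIF3g. SNRPA, a protein of the U1 snRNP in the spliceosome, had 163 reads in eIF3d, 141 in eIF3a, 31 in eIF3b and 84 in eIF3g. In each of these, as in BIRC5, eIF3b had the fewest reads and eIF3d the most by raw count. By percentile within its own list eIF3a stood slightly above eIF3d at SNRPA (96.1 against 95.7) and HIST1H2BO (86.3 against 86.0). At HIST1H2AD and BIRC5 eIF3d was highest by percentile too. Other start codon clusters differed: HIST1H1E had 40 reads in eIF3d and 44 in eIF3a, ZNF503 31 and 49, PRKAR2A 31 in eIF3d and 33 in eIF3g, and HIST1H1C 8 in eIF3d and 10 in eIF3b. Over all start codon clusters the median was 31 reads in eIF3d (17 clusters), 40 in eIF3a (15 clusters), 13 in eIF3b (9 clusters) and 25 in eIF3g (15 clusters). These classes are small and their medians carry no error.

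Lists of genes by function were compared with the whole table, in which 74.3% of genes (356 of 479) had an eIF3d cluster. Splicing and hnRNP proteins were listed for eIF3d in 17 of 18 cases, DDX39B and SNRPA being the strongest, followed by U2AF2, which helps recognise the 3′ splice site (summed reads 100 in eIF3d, 166 in eIF3a, 119 in eIF3b, 105 in eIF3g) and the hnRNP gene HNRNPAB (82 in eIF3d, 35 in eIF3a, 27 in eIF3b, 41 in eIF3g). The exception was SNRPD2, with 12 reads in 1 other list. All 7 chromatin regulators were listed, from MORF4L2 down to SET with 11 reads, and among them BRD2, a bromodomain protein (48 reads in eIF3d), and HDAC2, a histone deacetylase (32 reads). All 4 ubiquitin and proteasome genes were listed too, UBE2D2 and then PSMD14, a deubiquitinase of the proteasome, with 37 reads. These shares lie above the 74.3% of the whole table, but each list holds few genes. Nothing particular to a list is therefore read from these counts or from those of the lists below.

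Of 11 ribosomal protein genes in the table, 9 were listed for eIF3d. The strongest was RPS15A with 136 reads in eIF3d, 103 in eIF3a, 123 in eIF3b and 70 in eIF3g. RPL24 followed with 61 reads in an intron in eIF3d, 69 in eIF3a, 30 in eIF3b and 28 in eIF3g. RPS2 had 46 reads in eIF3d, 32 in eIF3a, 19 in eIF3b and 8 in eIF3g, an mRNA with more reads in eIF3d than in each other list. RPL10 and RPL23A had no eIF3d cluster. Among 9 snoRNA host genes 7 were listed, led by SNHG1 with 452 summed reads, GAS5, GNL3 and RPL17.

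The table held 5 eIF3 subunit mRNAs, of which 3 were listed for eIF3d and for every other subunit as well: EIF3A, EIF3B and EIF3M. EIF3M had 149 summed reads in eIF3d, 116 in eIF3a, 114 in eIF3b and 364 in eIF3g. EIF3B had 53 in eIF3d, 54 in eIF3a, 19 in eIF3b and 82 in eIF3g. Other translation factors and regulators were listed in 8 of 9 cases. TPT1, a translationally controlled growth protein, had 112 reads in eIF3d, 172 in eIF3a, 57 in eIF3b and 368 in eIF3g. LARP1, which binds mRNAs of the translation machinery, and PABPC4, a poly(A)-binding protein, are described with the rises in rank and the loci listed for eIF3d alone. EEF2, the elongation factor of ribosome translocation, had 23 reads in eIF3d, 22 in eIF3a, 14 in eIF3b and 8 in eIF3g. The exception was EIF4G3, described with the missing genes.

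Cell cycle genes were listed in 6 of 9 cases. CCNG1, a cyclin induced by p53, had 111 reads in eIF3d, 75 in eIF3a, 155 in eIF3b and 60 in eIF3g. CDC25A, an activating phosphatase of cyclin-dependent kinases, had 85 summed reads in eIF3d, 34 in eIF3a, 10 in eIF3b and 119 in eIF3g. MCM7, a subunit of the replicative helicase, had 79 reads in an intron in eIF3d, and PCNA, the sliding clamp of DNA synthesis, had 28. CCNI, CDKN2A and GMNN, listed for eIF3g with 11, 9 and 17 reads, were absent from the eIF3d list. Growth control and apoptosis genes were listed in 6 of 7 cases, BTG1, JUN and BIRC5 being followed by TXNIP, a thioredoxin inhibitor, with 41 reads.

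Chaperones were listed in 5 of 8 cases, the lowest share beside that of eIF3 subunits. PTGES3, a co-chaperone of HSP90, had 159 reads in eIF3d, 192 in eIF3a, 239 in eIF3b and 193 in eIF3g. BAG3, a co-chaperone of HSP70, had 48 summed reads in eIF3d, TCP1, a subunit of the cytosolic chaperonin, had 35 and CANX, the membrane chaperone calnexin of the endoplasmic reticulum, had 31. HSPA4 and HSPH1, which were listed for eIF3a and eIF3b, and STIP1 had no eIF3d cluster. Core metabolism genes were listed in 4 of 5 cases, with SCD, a fatty acid desaturase, at 117 summed reads, GLO1, which detoxifies methylglyoxal, at 73, ENO1, a glycolytic enzyme, at 51 and GLUL, glutamine synthetase, at 12. Structured and mitochondrial RNAs were listed in 5 of 6 cases, led by MT-RNR2 with 618 summed reads, RPPH1, the mitochondrial tRNA gene MT-TP with 95 and MT-RNR1 with 44.

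A locus was defined as a set of clusters joined by an overlap of at least 1 nt on the same strand, and the table held 558. Each of the 403 eIF3d clusters lay in a locus of its own, and 36 genes had more than 1, with 83 clusters between them. Beside EIF3A these included MT-RNR2 with 4 clusters and 618 reads, AMOT with 3 and 239, and MTPN, the cytoskeletal protein myotrophin, with 3 and 169. The eIF3d list shared 299 loci with eIF3a (74.2% of eIF3d loci and 79.9% of eIF3a loci), 293 with eIF3g (72.7% and 73.1%) and 230 with eIF3b (57.1% and 77.4%). Of the eIF3d loci, 173 (42.9%) were listed for every subunit and had a median of 37 eIF3d reads. The 67 loci missing for eIF3b alone had a median of 21, the 18 missing for eIF3g alone 15.5 and the 23 missing for eIF3a alone 13. Loci shared with 1 other subunit had a median of 17 with eIF3a (41 loci), 16 with eIF3g (30 loci) and 13 with eIF3b (16 loci). Loci of every subunit thus had the highest median, and below them the medians did not follow the number of subunits. At the 173 loci of every subunit, Spearman's correlation of eIF3d reads was 0.67 with eIF3a, 0.58 with eIF3g and 0.49 with eIF3b, a description over loci that share the antibody, the cells and the abundance of each RNA.

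Of the eIF3d loci 35, or 8.68% (6.31% to 11.8%), were listed for eIF3d alone. The share was 4.55% for eIF3a (17 loci), 5.39% for eIF3b (16 loci) and 12.7% for eIF3g (51 loci), so eIF3d stood between the others. The 35 loci lay in 35 genes, 31 of which had no cluster of another subunit anywhere. Their reads ran from 10 to 45 with a median of 15, against 24 at the 368 shared loci, and they held 2.49% of eIF3d reads. Among them 18 (51.4%) had 15 reads or fewer, against 28.8% of shared loci, and 6 reached the median of the eIF3d list. The strongest loci listed for 1 other subunit alone had 370 reads in eIF3a, 1875 in eIF3b and 1173 in eIF3g, each above the 45 reads of eIF3d. Low counts were common to all such loci: the medians were 18 reads in eIF3a, 14 in eIF3b and 14 in eIF3g, and 41.2%, 62.5% and 56.9% of them had 15 reads or fewer. In the 5′ UTR lay 26 of the 35 (74.3%, 57.9% to 85.8%), against 68.2% of shared loci, and these shares were within each other's counting error.

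The strongest locus listed for eIF3d alone was the 5′ UTR of SP3, a transcription factor that binds GC boxes (chr2:174830076-174830100, minus strand), with 45 reads and rank 83. DALRD3, a protein of tRNA modification, had 30 reads in a cluster annotated as intron (chr3:49057632-49057654, minus strand). Whether another RNA is encoded within this interval was not checked. The lincRNA RP3-410C9.1 had 27 reads, and ACIN1, a splicing-associated nuclear protein of apoptotic chromatin condensation, had 25 in its 5′ UTR. These 4 exceeded the eIF3d median of 23 reads. PABPC4, a cytoplasmic poly(A)-binding protein that links the mRNA tail to translation, had 23 reads in its 5′ UTR (chr1:40042035-40042056, minus strand), as had an intron of the adaptor protein SHF. All other loci of this kind lay below the median.

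The next loci listed for eIF3d alone covered varied functions. CST3, the protease inhibitor cystatin C, and TSC22D2 had 22 reads each. SRP14, a protein of the signal recognition particle, had 21, as had RNU12, an RNA of the minor spliceosome. RNU12 also had an eIF3g cluster 50 nt away, so it was listed alone by position and not by gene. PARPBP, which binds the DNA repair enzyme PARP1, had 19 reads, CAP1, an actin regulator, had 18 and CLNS1A, a chaperone of snRNP assembly, had 17 at its start codon. With 16 reads each followed FASTK, a kinase-like protein of mitochondrial RNA, LRIF1, a nuclear receptor-interacting protein, and TMEM206, a chloride channel, the last in a coding exon. The remaining 18 loci had 10 to 15 reads. A cluster of another subunit lay within 100 nt of 3 of the 35 loci.

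**Figure D2:**
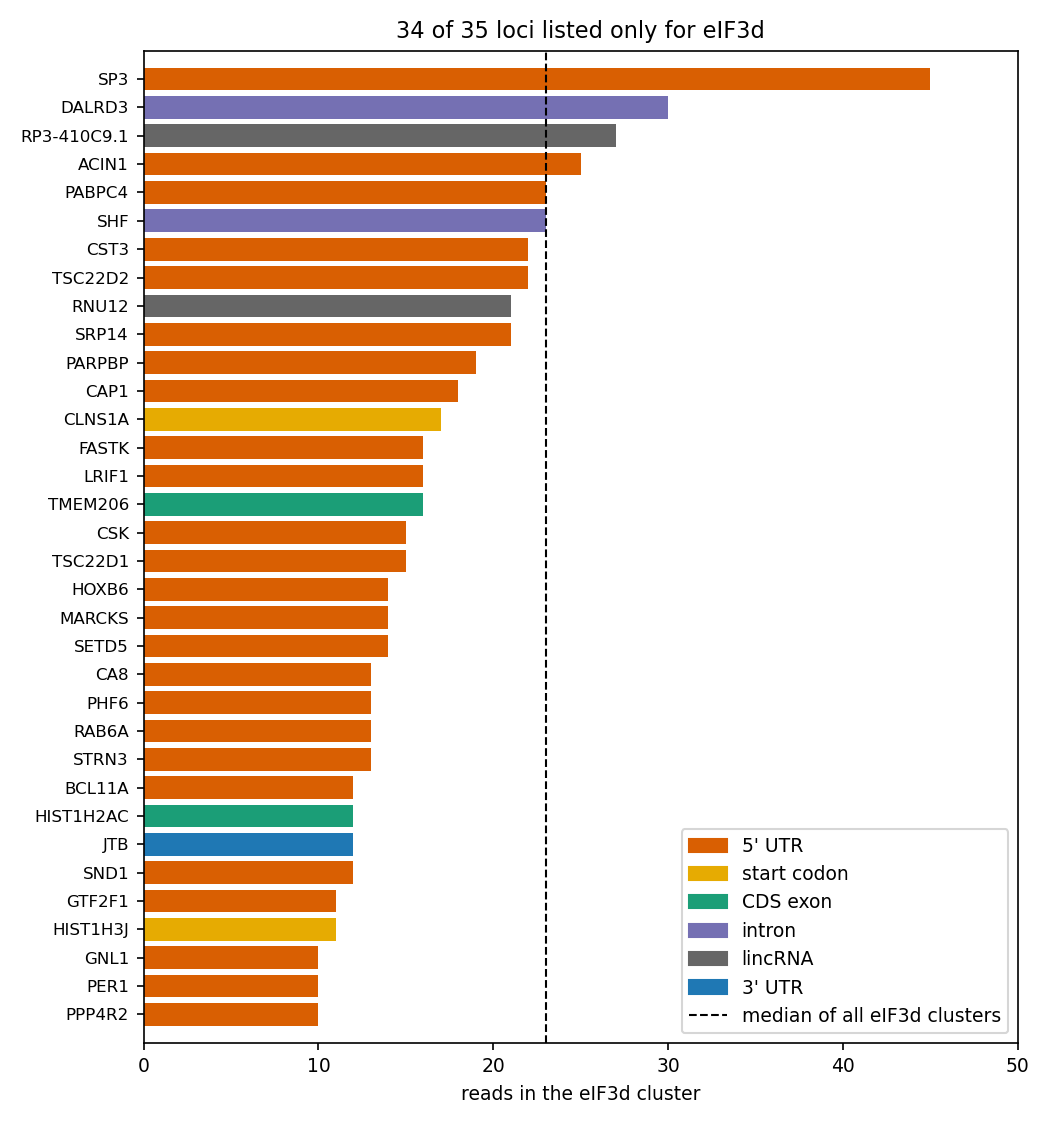
Reads in the eIF3d cluster for 34 of the 35 loci listed for eIF3d alone, coloured by annotation, with the median of all 403 eIF3d clusters (23 reads) as a dashed line. SP3 with 45 reads is the longest bar, and most bars end left of the line.

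To compare strength, each cluster was given its percentile by reads within its own list, and at the 173 loci of every subunit the eIF3d percentile was set against the median of the other 3. The eIF3d percentile was higher by 25 points or more at 23 loci (13.3%) and lower by as much at 17 (9.83%). The lists differ in length, and with percentiles taken among these 173 loci alone the counts were 18 higher and 18 lower, so no excess of rises is read from them. The same count with each other subunit set apart gave 17 higher (9.83%) and 25 lower (14.5%) for eIF3a, 11 (6.36%) and 42 (24.3%) for eIF3b, and 24 (13.9%) and 25 (14.5%) for eIF3g. The median change for eIF3d was 4.51 points, its median size was 11.2 points and 78 loci stayed within 10 points. The median size was 12.3 points for eIF3a, 13.9 for eIF3g and 15.8 for eIF3b. The eIF3d value was the smallest but close to that of eIF3a, where 76 loci stayed within 10 points. These sizes have no error and each subunit was set against different lists, so no order of closeness is read from them. Near the lowest count of 8 reads a few reads span many points. In eIF3b 8 reads stood at percentile 2.85 and 12 reads at 23.2. Changes at loci with low counts, among them several of those named below, therefore rest on few reads.

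**Figure D3:**
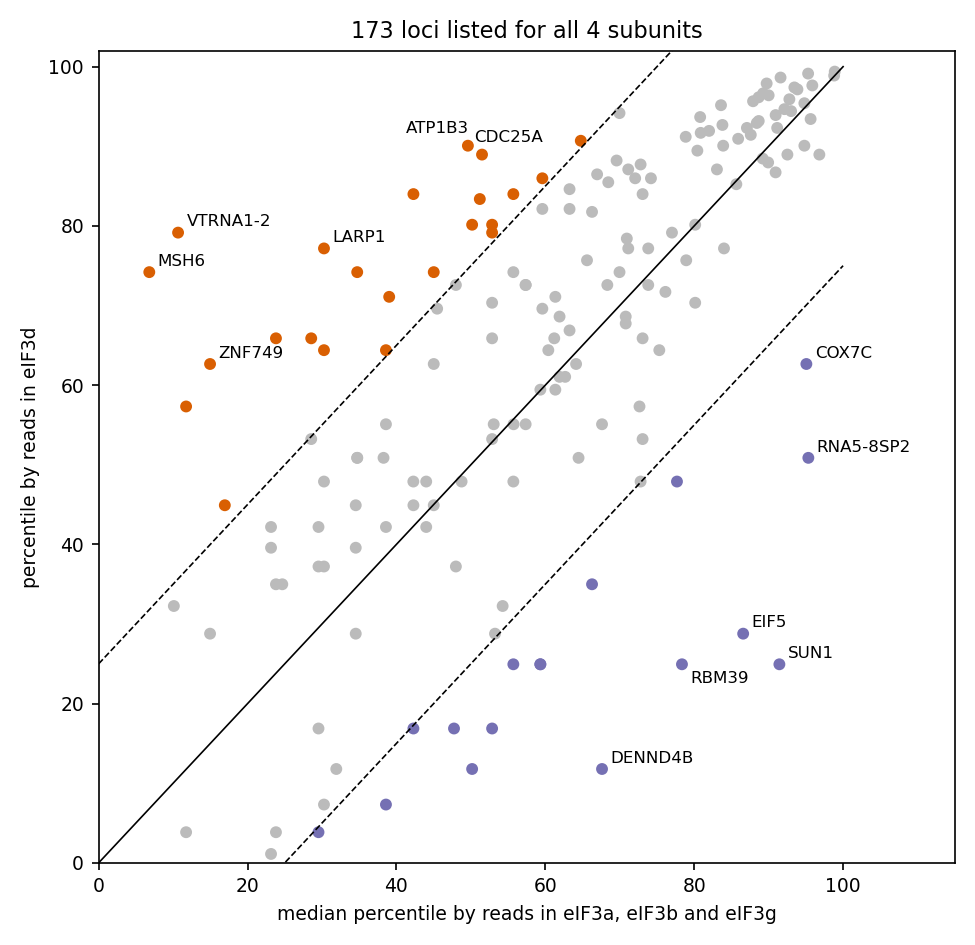
Percentile by reads in the eIF3d list against the median percentile in the lists of eIF3a, eIF3b and eIF3g, with 1 point for each of the 173 loci of every subunit; the solid line marks equality and the dashed lines 25 points either way. Orange points (23) are higher in eIF3d, purple points (17) lower, and labels name 12 of them.

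The largest rise in rank was at VTRNA1-2, a vault RNA (chr5:140098548-140098569, plus strand), with 45 reads in eIF3d, 10 in eIF3a, 8 in eIF3b and 171 in eIF3g, a change of 68.5 points. The eIF3d and eIF3a clusters there shared only their edges. MSH6, a DNA mismatch repair protein, was next at its start codon (chr2:48010372-48010390, plus strand), with 41 reads in eIF3d, 9 in eIF3a, 8 in eIF3b and 12 in eIF3g, a change of 67.4 points. At MSH6 eIF3d stood above each other list, while at VTRNA1-2 eIF3g was higher still. ZNF749, a zinc finger protein, had 29 reads in eIF3d, 14 in eIF3a, 9 in eIF3b and 11 in eIF3g (47.7 points). An intron of LARP1 had 43 reads in eIF3d, 14 in eIF3a, 8 in eIF3b and 26 in eIF3g (46.9 points), and an intron of CTNNAL1, a catenin-like protein, had 26, 9, 10 and 49 reads in the same order (45.6 points). At CTNNAL1 the eIF3d cluster began 29 nt upstream of the eIF3b cluster and 25 nt upstream of the eIF3g cluster. The eIF3a cluster there overlapped neither of those, so this rise compares shifted sites.

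The next rises were all in 5′ UTRs. OAT, a mitochondrial enzyme of ornithine metabolism, had 31 reads in eIF3d, 26 in eIF3a, 12 in eIF3b and 13 in eIF3g (42.1 points). CDK12, a kinase of transcription elongation, had 54 reads in eIF3d, 25 in eIF3a, 16 in eIF3b and 14 in eIF3g (41.7 points). ATP1B3, a subunit of the sodium pump, had 79 reads in eIF3d, 21 in eIF3a, 17 in eIF3b and 173 in eIF3g (40.5 points). RANGAP1, the GTPase activator of nuclear transport, had 41 reads in eIF3d but 57 in eIF3a, with 14 in eIF3b and 11 in eIF3g (39.5 points). The CDC25A cluster had 74 reads in eIF3d, 25 in eIF3a, 10 in eIF3b and 21 in eIF3g (37.5 points), above each other list. A separate 5′ UTR locus of CDC25A went the other way against eIF3g, with 11 reads in eIF3d, 9 in eIF3a and 98 in eIF3g. At VTRNA1-2, CTNNAL1, ATP1B3 and RANGAP1 1 other list had more reads than eIF3d, so these rises are relative to the median and not to every subunit.

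The largest fall was in an intron of SUN1, a nuclear envelope protein (chr7:897291-897313, plus strand), with 14 reads in eIF3d, 89 in eIF3a, 117 in eIF3b and 18 in eIF3g, a change of -66.5 points. EIF5, the GTPase activator of eIF2 at start codon recognition (chr14:103800873-103800896, plus strand), had 15 reads in eIF3d, 76 in eIF3a, 82 in eIF3b and 17 in eIF3g at its 5′ UTR (-57.8 points). At both loci eIF3g was nearly as low as eIF3d by reads and the scaffold subunits were high. EIF5 had a further 5′ UTR locus without an eIF3d cluster, where eIF3g had 82 reads, and summed over the gene eIF3g had 99 reads, eIF3a 101, eIF3b 94 and eIF3d 15. RBM39, a splicing regulator, was similar, with 14 reads in eIF3d, 60 in eIF3a, 45 in eIF3b and 13 in eIF3g (-53.4 points). The ribosomal RNA pseudogene RNA5-8SP2 had 23 reads in eIF3d, 132 in eIF3a, 395 in eIF3b and 26 in eIF3g (-44.5 points).

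In 4 of the other 6 falls eIF3d had fewer reads than every list. DENND4B, an exchange factor for Rab GTPases, had 11 reads in eIF3d, 46 in eIF3a, 29 in eIF3b and 30 in eIF3g (-55.8 points). COX7C, a subunit of cytochrome c oxidase (chr5:85913820-85913843, plus strand), had 29 reads in eIF3d, 127 in eIF3a, 276 in eIF3b and 103 in eIF3g (-32.4 points). Both were clearly lowest in eIF3d. HNRNPA0, an hnRNP protein, had 11 reads in eIF3d, 15 in eIF3a, 19 in eIF3b and 46 in eIF3g (-38.4 points), and GLUL had 12, 14, 20 and 30 in the same order (-36.0 points). At HNRNPA0 the eIF3d cluster began 29 nt and ended 23 nt downstream of the cluster in each other list. It shared only its edge with them, so this fall compares neighbouring sites. A coding exon of ARF4, a Golgi GTPase, had 14 reads in eIF3d, 27 in eIF3a, 8 in eIF3b and 97 in eIF3g (-34.4 points). A weaker 5′ UTR locus of AMOT, a scaffold of Hippo signalling, had 14 reads in eIF3d, 27 in eIF3a, 11 in eIF3b and 55 in eIF3g (-34.4 points). The strongest AMOT cluster, at a separate locus, had 205 reads in eIF3d and 58 to 109 in the other lists, so the gene did not move as a whole. ARF4 and HNRNPA0 also had a further locus, with 41 reads in eIF3d for ARF4 (16 in eIF3a, 32 in eIF3g) and 39 for HNRNPA0 (42 in eIF3a, 113 in eIF3b, 8 in eIF3g).

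Ratios of reads at shared loci, log2((reads + 1)/(reads + 1)) less the median ratio of the pair, gave another view of the same counts. Against eIF3a, 36 of 299 loci (12%) were at least 2-fold higher in eIF3d and 34 (11.4%) at least 2-fold lower. Against eIF3b, 41 of 230 (17.8%) were higher and 38 (16.5%) lower. Against eIF3g, 51 of 293 (17.4%) were higher and 55 (18.8%) lower. Taking off the median sets most of this balance: without it 54 were higher and 23 lower against eIF3a, and 63 and 27 against eIF3b. With at least 20 reads required in either list, 27 were higher and 49 lower against eIF3b. The 3 comparisons share the eIF3d values and are set side by side only.

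At 3 of the 173 loci of every subunit eIF3d was at least 2-fold above each other list, and at 3 at least 2-fold below. Above were MSH6, CDC25A and TMEM165, a Golgi ion transporter with 123 reads in eIF3d, 42 in eIF3a, 33 in eIF3b and 19 in eIF3g at its 5′ UTR. The centred log2 ratios of MSH6 were 1.93 over eIF3a, 1.87 over eIF3b and 1.66 over eIF3g, and those of TMEM165 were 1.38, 1.51 and 2.60. Below were COX7C, DENND4B and an intron of CEP85, a centrosome protein with 74 reads in eIF3d, 144 in eIF3a, 122 in eIF3b and 171 in eIF3g. CEP85 was 2-fold below eIF3a and eIF3b only after the median ratio was taken off, while the other 5 passed 2-fold without that step. The COX7C ratios were -2.24 over eIF3a, -3.56 over eIF3b and -1.82 over eIF3g. These genes were named after their values were seen where the rank rule did not already take them, which holds for TMEM165 and CEP85.

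Genes with a cluster for eIF3a, eIF3b and eIF3g and none for eIF3d numbered 22 of 183 (12%). The same count was 20 of 181 (11%) for eIF3a, 55 of 216 (25.5%) for eIF3b and 16 of 177 (9.04%) for eIF3g. The share for eIF3d thus lay between those of the other subunits. The missing genes were weak in the lists that held them, with a median of 19 reads against 29 in the 161 genes of every list. In 15 of the 22 at least 1 of those lists had 12 reads or fewer, which was so for 46 of the 161. Genes were also split by the region of their strongest cluster in those lists. Missing were 5 of 15 in coding exons (33.3%, 15.2% to 58.3%), 4 of 18 in introns (22.2%, 9.0% to 45.2%) and 9 of 123 in 5′ UTRs (7.32%, 3.90% to 13.3%). In noncoding RNAs 3 of 16 were missing (18.75%, 6.59% to 43.0%), at start codons 1 of 8 and in 3′ UTRs 0 of 3.

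Noncoding and mitochondrial RNAs headed the missing genes. The piwi RNA entry FR145575 (chrM:2241-2306) had 22 reads in eIF3a, 26 in eIF3b and 360 in eIF3g. It lies in a stretch of the mitochondrial genome in which eIF3d had a nearby MT-RNR2 cluster of 55 reads (chrM:2193-2227), joined to the same locus by clusters of other subunits, so it was missing by name and not by locus. The lincRNA RP11-93I21.3 (chr4:125427021-125427041, minus strand) had 35 reads in eIF3a, 191 in eIF3b and 48 in eIF3g. The mitochondrial tRNA MT-TF had 38, 38 and 71 reads in the same order. These 3 were the missing genes with at least 20 reads in every other list.

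Among mRNAs with a missing eIF3d cluster, STIP1, a co-chaperone that joins HSP70 and HSP90 (chr11:63953683-63953735, plus strand), had 56 reads in eIF3a, 18 in eIF3b and 29 in eIF3g. EIF4G3, a scaffold of the cap-binding complex (chr1:21502638-21502684, minus strand), had 28, 54 and 9 reads in its 5′ UTR in the same order. TLE3, a transcriptional corepressor, had 12, 28 and 49 reads. BOD1, a regulator of chromosome alignment, had 33, 37 and 9. Each of these was well above the lowest count of 8 in at least 1 list and close to it in another, apart from STIP1. PGRMC1, a heme-binding membrane protein, had 45 reads in eIF3a, 12 in eIF3b and 17 in eIF3g in a coding exon. DICER1, the ribonuclease that cuts microRNA precursors, had 8, 15 and 32 reads in the same order, and LRRC58 had 17, 27 and 11.

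Introns of 4 genes were also missing for eIF3d. NARS2, a mitochondrial tRNA synthetase, had 12 reads in eIF3a, 72 in eIF3b and 20 in eIF3g, and CREBBP, a histone acetyltransferase, had 20, 19 and 33. GNG12, a G protein subunit, had 12, 34 and 13 reads, and KCNMB2, a potassium channel subunit, had 8, 12 and 37. All 4, with RP11-93I21.3 and the coding exon of ADNP, had a median of at least 1.9 conversions per read in the lists that held them, close to a fixed 2 in every read. Without these 6 genes 16 were missing for eIF3d. The part of this in their absence from the eIF3d list was not tested. Such a rate was not particular to missing genes, and its share among the 161 genes of every list was not counted. As examples, an intron of SUPT3H had 221 conversions at 111 reads in eIF3a and 400 at 200 in eIF3g, with 220 reads in eIF3d. An intron of FGFR2 had 1049 conversions at 525 reads in eIF3b, with 63 reads in eIF3d.

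**Figure D4:**
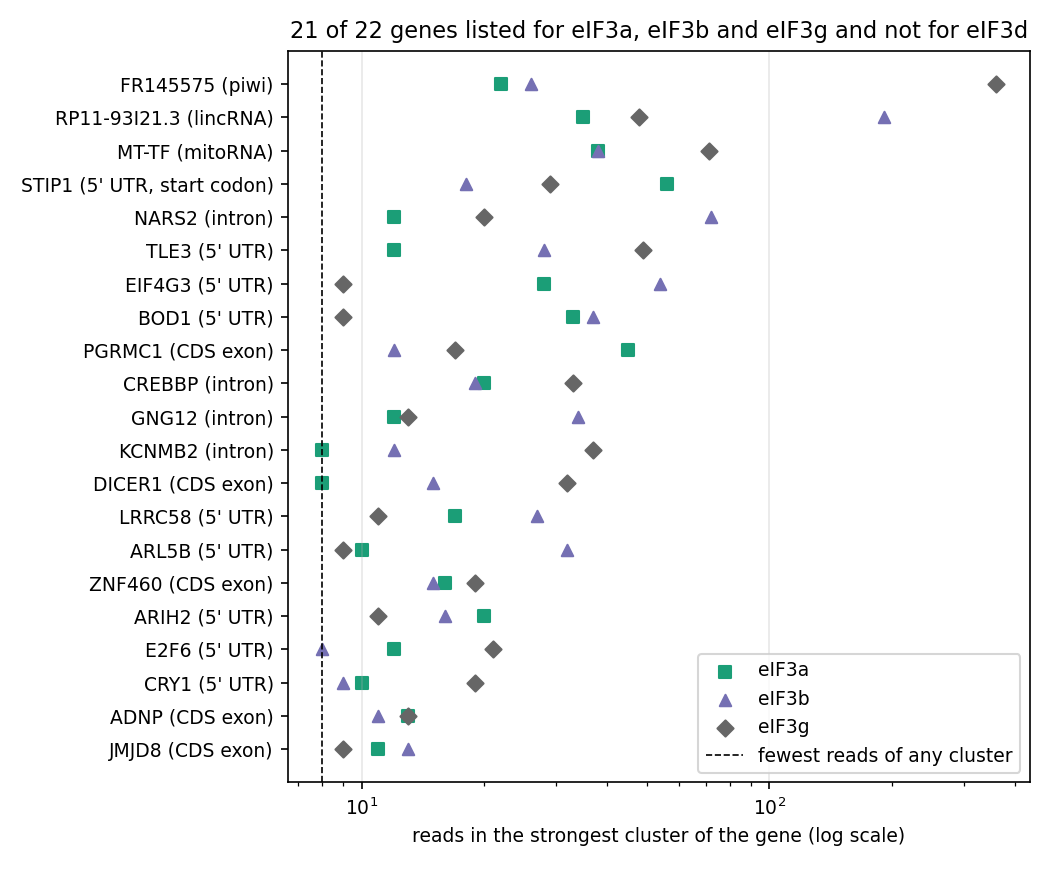
Reads (log axis) in the strongest cluster of 21 of the 22 genes listed for eIF3a, eIF3b and eIF3g and not for eIF3d, with the lowest count of any cluster (8 reads) as a dashed line. Most genes have at least 1 symbol near the line, and FR145575, RP11-93I21.3 and MT-TF do not.

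Where eIF3d and another subunit each had 1 cluster at a locus, their ends were compared. Both ends were identical at 164 of 293 loci (56.0%) with eIF3a, 147 of 292 (50.3%) with eIF3g and 93 of 227 (41.0%) with eIF3b. Among the other pairs the share ran from 48.0% for eIF3a with eIF3b to 56.9% for eIF3a with eIF3g. The DDX39B cluster had the same ends in all 4 lists. At JUN the eIF3d cluster began 5 nt further downstream than in each other list and ended at the same base. At BTG1 it began 30 nt downstream of the eIF3a cluster and within 1 nt of the eIF3b and eIF3g clusters. The widest gaps were at the EIF3A cluster of 2599 reads, which began 85 nt downstream of the eIF3b cluster, and in MT-RNR2 at chrM:2757-2820, which ended 100 nt upstream of the eIF3g cluster.

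The column of T-to-C conversions behaved differently for eIF3d, and no result above uses it to rank eIF3d clusters. The eIF3d clusters had a median of 0.182 conversions per read, against 1.02 for eIF3a, 1.05 for eIF3b and 1.02 for eIF3g. No eIF3d cluster had more than 39 conversions, while the other lists reached 622, 1049 and 1885. Among eIF3d clusters with 8 to 15 reads the median was 4 conversions, against 12 in eIF3a and 12 in eIF3g. Among those with over 120 reads it was 8.5, against 163 in eIF3a and 135.5 in eIF3g. Conversions thus hardly grew with reads in eIF3d. Per read, the median of these strong clusters was 0.024 in eIF3d and 0.12 in eIF3g, against 1.04 in eIF3a and 1.1 in eIF3b. With 8 to 15 reads it was 0.32 in eIF3d and 1 in eIF3g. A low rate in strong clusters was therefore not particular to eIF3d, while a low rate in weak clusters was. Some leading clusters had few conversions in other lists as well. BTG1 had 74 at 684 reads in eIF3a and 294 at 3109 in eIF3g. In eIF3g JUN had 142 at 1735 reads, SNHG1 654 at 14879 and GAS5 156 at 6165. UBE2D2 and DDX39B differed, with 622 at 554 reads and 387 at 361 in eIF3a. The cluster of FASTK, with 17 conversions in 16 reads, was the one eIF3d cluster with at least 1 per read. Whether the column counts something else for eIF3d, or conversion was lower there, cannot be told apart from this table.

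**Figure D5:**
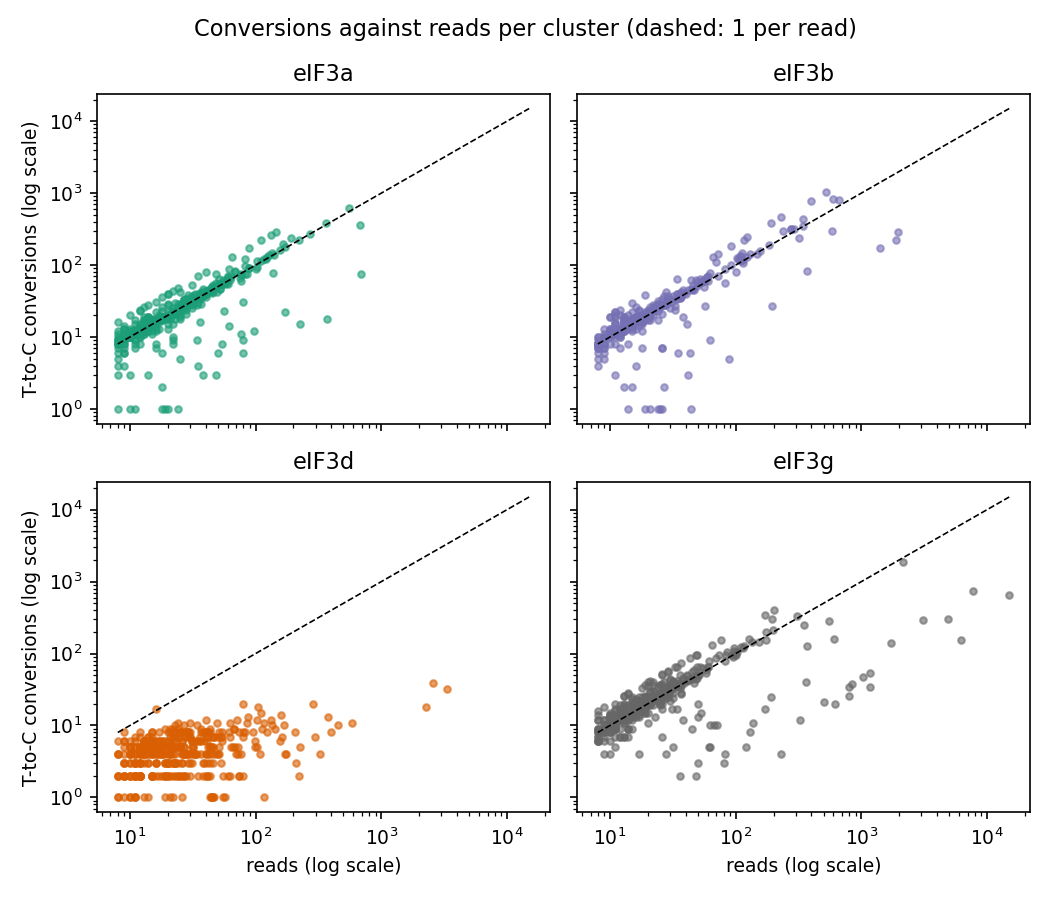
T-to-C conversions against reads for every cluster, both on log axes, in 1 panel per subunit; the dashed line marks 1 conversion per read. Most points of eIF3a, eIF3b and eIF3g lie near the line, with some off it in each list. Nearly all points of eIF3d lie below it, and they reach at most 39 conversions at any number of reads.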

How the data were processed

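Per the labels, 12 PAR-CLIP libraries of 293T cells were made, 3 for each of eIF3a, eIF3b, eIF3d and eIF3g. The authors deposited raw read counts per cluster, 1 pooled value per subunit, per the file headers. The number of T-to-C conversions is a further column of the authors' deposited table. The submitters' processing notes name hg19, cutadapt, Bowtie and bedtools. The cluster caller, its thresholds and how replicates were combined were not given in the sources used here. Whether positions count from 0 or 1 is not stated, and they are printed as deposited.

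Clusters overlapping by 1 nt on a strand were joined into loci, and the strongest cluster of a subunit stood for it. Percentiles, ratios with a pseudocount of 1 and shares with Wilson intervals were computed with Python 3.11.15, pandas 2.3.3 and scipy 1.17.1, after tests on simulated data. No differences were tested, since clusters are not replicates. Of 356 eIF3d genes, 340 matched RefSeq names (GRCh38.p14), 30 through an older symbol; microRNA sequences are from RefSeq. One name turned into a date is not used here.

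The members, gene lists and comparisons were chosen with earlier results of these data known. Genes named are the 10 strongest, the 15 strongest loci listed for eIF3d alone (17 with ties), the 10 largest rises and falls, the 15 strongest missing genes, JUN, BTG1 and up to 4 per list; the text says where it names others, or gives them as absent members or examples of a class. Some genes taken by this rule are not reported here, in text or figures. Alternatives changed the overlap, the reads required, the points, the centring and the pseudocount.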

Additional observations from a re-analysis of the deposited data

How the results depend on the processing

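Of 47 alternatives to 11 results, 37 left the value within counting error or within 1.5 times the count given, and 10 did not. The 5′ UTR share of eIF3d fell from 68.7% by clusters to 49.8% by reads; leaving out EIF3A, an alternative added after seeing the data, brought it to 66.7%. Loci listed for eIF3d alone numbered 35, between 31 and 41 under the other definitions of overlap, and 6 with at least the median reads. Rises in rank numbered 23 at 25 points, 47 at 15 points, 8 at 40 points and 46 against eIF3b alone, and falls numbered 17, 26 at 15 points and 5 at 40 points. Loci higher in eIF3d than eIF3b numbered 41, 63 without centring and 27 with at least 20 reads in either list. Missing genes numbered 22, 24 by locus, 16 without the genes at 1.9 or more conversions per read, and 3 among clusters with at least the median reads. Splits of higher and lower moved as well: against eIF3b 41 loci were higher and 38 lower, and with at least 20 reads in either list 27 and 49, which turns the balance. Ranks taken among the loci of every subunit gave 18 rises and 18 falls, so the excess of rises was lost.

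No paired analysis was possible because the table gives no value per replicate. Leaving out each replicate was not run for the same reason. The lists end at 8 reads, and whether a locus absent from a list had fewer reads or none is unknown. Intervals cover counting error only.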
